A study of Homo sapiens with 4 samples.

Results

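The genes of glycolysis and of the pentose phosphate pathway were described in a human leukemia line labelled NB4, which is known as a promyelocytic line,, with and without knockdown of LDB1. They comprised 35 listed genes out of 28412 genes in the expression table and were chosen by name, by their place in the pathway, from glucose uptake to lactate export and the pentose phosphate branch. The choice was made with earlier results of these data known. RNA-seq had been carried out on 4 libraries. The 2 sh-NC libraries came from NB4 cells with the control vector, whose source label reads untreated and whose genotype label is control. The 2 sh-LDB1 libraries came from NB4 cells with an shRNA vector against LDB1. The vectors were lentiviral and the cells were selected with puromycin, as stated in the study's methods. The labels did not say which of the study's LDB1 shRNAs was sequenced, nor whether the 2 libraries of a group came from separate cultures, so p-values measure only the spread between these libraries, which may be technical.

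Glycolysis splits glucose into pyruvate in the cytosol and yields ATP and NADH, and most of its steps can be carried by several isozymes encoded by separate genes. The pentose phosphate pathway starts from glucose-6-phosphate and supplies NADPH and ribose-5-phosphate. Mature red cells have no mitochondria and live on glycolysis, and they use the R form of pyruvate kinase, made from PKLR, while most proliferating cells use the M2 form, made from PKM. LDB1 is an adaptor protein that joins LMO2, TAL1 and GATA factors at enhancers of blood genes.

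PKLR and PKM carried the most opposed change at any single step, so the sequence before their start sites is shown. The windows are RefSeq promoter windows on GRCh38.p14, 250 bases before a start site, on the minus strand of the genome for both genes and written 5′ to 3′. Capitals mark 4 motifs on either strand. AGATAA is one form of the GATA motif, and TGATAA is another form of it, written as TTATCA where it lies on the other strand. CACCC is the core of a motif of KLF factors and is written as GGGTG where it lies on the other strand. CACGTG is an E-box. The upstream PKLR window is chr1:155301439-155301688, the downstream PKLR window is chr1:155300953-155301202, and the PKM window is chr15:72231191-72231440.
PKLR upstream start: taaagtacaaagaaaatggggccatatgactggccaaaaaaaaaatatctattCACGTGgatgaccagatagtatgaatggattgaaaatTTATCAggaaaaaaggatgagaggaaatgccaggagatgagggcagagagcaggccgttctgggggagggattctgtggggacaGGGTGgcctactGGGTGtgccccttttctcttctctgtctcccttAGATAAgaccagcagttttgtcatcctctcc
PKLR downstream start: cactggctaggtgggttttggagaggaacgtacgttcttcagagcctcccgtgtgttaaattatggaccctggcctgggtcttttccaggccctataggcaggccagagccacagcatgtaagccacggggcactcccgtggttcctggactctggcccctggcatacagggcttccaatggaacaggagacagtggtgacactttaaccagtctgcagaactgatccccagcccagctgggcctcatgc
PKM start: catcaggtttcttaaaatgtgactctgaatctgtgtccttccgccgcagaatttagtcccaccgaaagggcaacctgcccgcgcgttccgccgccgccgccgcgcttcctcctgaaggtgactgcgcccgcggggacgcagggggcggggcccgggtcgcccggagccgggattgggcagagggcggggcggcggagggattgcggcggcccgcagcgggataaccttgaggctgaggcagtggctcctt
In the upstream PKLR window, AGATAA began 31 bases and TGATAA 160 bases before the start site. CACCC stood there at 64 and 76 bases and CACGTG at 197 bases before the start site. The downstream PKLR window and the PKM window held none of these 4 motifs. A match is a description of letters and not of binding. RNA-seq levels per gene do not tell the 2 PKLR start sites apart.

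The values were FPKM, fragments per kilobase normalised for library depth, given once for each gene in each library. Between 14472846 and 16740207 reads per library were recovered from the steps of the values. LDB1 itself was at 135.1 and 120.1 FPKM in the control libraries against 10.2 and 9.47 FPKM in the sh-LDB1 libraries, or 7.73% of the sh-NC mean. The log2 difference of LDB1 was -3.56 ± 0.077 (SE, n = 2 per group; limma adjusted p = 6.93e-05). The cell type label was checked against marker lists. Of 12 promyelocyte and granulocyte markers, MPO and CTSG were not analysed here and ELANE was at 0 FPKM except for 0.182 FPKM in sh-LDB1 replicate 1, and the summed level of the list was 13.1 and 11.8 FPKM in sh-NC against 41.6 and 38.04 FPKM in sh-LDB1, with 4 of 6 tested markers higher. The 7 megakaryocyte markers summed to 3.22 to 4.97 FPKM and the 6 monocyte markers to 0.264 to 0.842 FPKM over the 4 libraries, with 2 megakaryocyte markers and no monocyte marker tested. The 18 erythroid markers, among them the globins, summed to 4318 and 4508 FPKM in sh-NC, against 450.7 and 413.9 FPKM in sh-LDB1, and all 15 that were tested were lower by more than 2-fold. The cells are therefore called by their label only, and the erythroid markers went against a promyelocytic identity. With 2 groups only, the erythroid markers necessarily changed in the same libraries as every pathway gene that fell or rose. Their part in the result was not tested. In these bulk libraries fewer cells of a type and less RNA per cell cannot be told apart.

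To see which steps of the pathways differed after LDB1 knockdown, sh-LDB1 was set against sh-NC gene by gene. Of the 35 genes, 32 had a mean of at least 1 FPKM and were tested with limma on log2(FPKM + 1), a scale that understates the change of low genes. At an adjusted p below 0.05, 15 were higher and 10 were lower in sh-LDB1, against 29.9% higher and 37.4% lower among all 13300 genes tested. Together, 78.1% of the tested pathway genes were called, and the share over all tested genes was 67.4%. With each library scaled to the same summed FPKM, the counts were 20 higher and 7 lower, and over all tested genes 4876 higher and 4047 lower in place of 3983 and 4978. Past 2-fold on the log2(FPKM + 1) scale of the deposited values, 19.8% of all tested genes were called. Of the pathway genes, 6 rose past 2-fold (SLC2A3, GPI, ALDOA, ENO2, PKM and SLC16A3) and 4 fell (HK1, PKLR, LDHB and RPIA). SLC16A3, counted among the higher genes, averaged 0.830 FPKM in sh-NC and passed the filter only through sh-LDB1, where it was high. With equal summed FPKM, TKT also passed 2-fold (1.08 on the log2 scale), which made 7 higher, and a limma treat test against 2-fold left 3 of the 4 lower. The share past 2-fold over all tested genes was 9.5% higher and 10.3% lower. These all-gene shares depend on the scale. With a pseudocount of 0.1, 1697 genes were higher and 1880 lower past 2-fold, in place of 1264 and 1371. The pathway genes stayed at 6 higher and 4 lower. The median log2 difference of the 32 genes was 0.15, against -0.078 for all tested genes, and the median absolute log2 difference was 0.69 against 0.51. For 31 of the 32 genes both libraries of one group lay above both of the other, which also held for 84.6% of all tested genes.

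**Figure D1:**
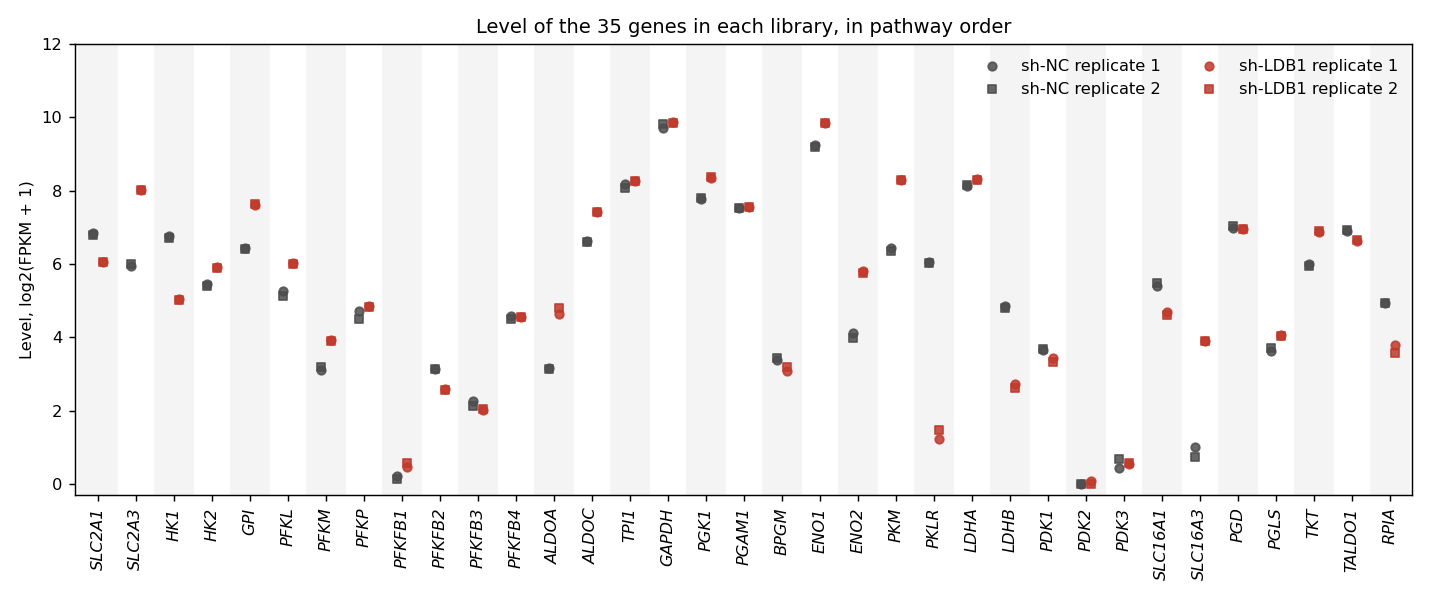
Level of the 35 genes as log2(FPKM + 1), in pathway order from glucose uptake to the pentose phosphate branch, with 1 point per library (circles replicate 1, squares replicate 2). GAPDH and ENO1 held the highest levels, PFKFB1, PDK2 and PDK3 lay near 0, and PKLR and SLC16A3 showed the widest gaps between the groups.

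Levels spanned a wide range. At the top, 7 genes (TPI1, GAPDH, PGK1, PGAM1, ENO1, LDHA and PGD) were above 100 FPKM in every library, and 31 genes were above 1 FPKM in every library. Below the filter, PFKFB1 was at 0.150 and 0.0989 FPKM in sh-NC against 0.364 and 0.482 FPKM in sh-LDB1, from 3 to 15 recovered reads. PDK3 was at 0.337, 0.603, 0.466 and 0.481 FPKM in sh-NC replicates 1 and 2 and sh-LDB1 replicates 1 and 2. PDK2 was at 0 FPKM except for 0.0456 FPKM in sh-LDB1 replicate 1. No test was made of these 3 genes.

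**Figure D2:**
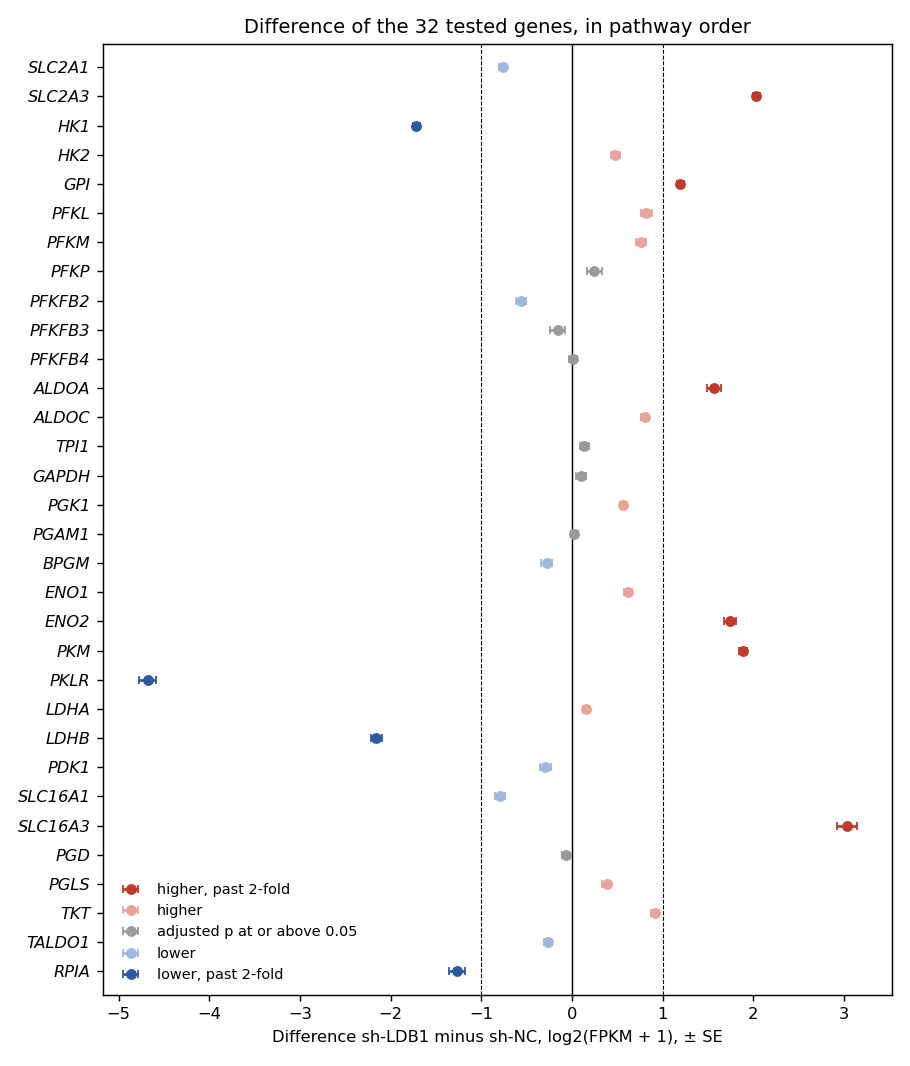
Log2 difference of sh-LDB1 minus sh-NC on the log2(FPKM + 1) scale, with bars of 1 SE (n = 2 per group), for the 32 tested genes, coloured by call, with dashed lines at 2-fold. PKLR stood at -4.68 and SLC16A3 at 3.03, the lowest and the highest of the 32.

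The more abundant glucose transporter mRNA changed from SLC2A1 to SLC2A3. SLC2A1 encodes GLUT1, the basal glucose transporter that is abundant on red cells, and SLC2A3 encodes GLUT3, a transporter of high affinity. SLC2A1 was at 113.4 and 108.6 FPKM in the control libraries against 65.2 and 64.9 FPKM in the sh-LDB1 libraries. Both sh-LDB1 libraries were lower, with a log2 difference of -0.76 ± 0.042 (SE; limma adjusted p = 0.000248). SLC2A3 (ENSG00000059804, chr12:7919230-8019007, minus strand) was at 61.1 and 63.4 FPKM in sh-NC against 259.2 and 257.2 FPKM in sh-LDB1. It rose by 2.03 ± 0.041 (SE; limma adjusted p = 6.77e-05) on the log2 scale. SLC2A1 made up 64.1% ± 1.31 (SD, n = 2) of the summed FPKM of the pair in sh-NC and 20.1% ± 0.031 (SD, n = 2) in sh-LDB1, so that SLC2A3 became the more abundant of the 2. The sum of both rose from a mean of 173.2 to 323.3 FPKM. SLC2A3 shared 13.3% of its transcript 50-mers with its neighbour SLC2A14, and reads of such stretches could be counted for either gene.

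Hexokinase, which traps glucose in the cell as glucose-6-phosphate, showed the same kind of exchange with the total going down. HK1 (ENSG00000156515, chr10:69269984-69401884, plus strand), the constitutive isozyme and the one of red cells, was at 108.4 and 103.9 FPKM in sh-NC against 31.7 and 31.6 FPKM in sh-LDB1. It fell by 1.71 ± 0.043 (SE; limma adjusted p = 7.59e-05) on the log2 scale. HK2, the inducible isozyme of muscle and of many tumours, was at 43.1 and 40.8 FPKM in sh-NC against 59.2 and 58.5 FPKM in sh-LDB1. The HK2 log2 difference was 0.48 ± 0.046 (SE; limma adjusted p = 0.00107). HK1 held 71.7% ± 0.164 (SD, n = 2) of the pair in sh-NC and 34.9% and 35.1% in the 2 sh-LDB1 libraries. The summed hexokinase level went from a mean of 148.1 to 90.5 FPKM.

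The following steps of the upper stage rose or did not pass the test. GPI (ENSG00000105220, chr19:34359480-34402413, plus strand) converts glucose-6-phosphate to fructose-6-phosphate. Its level was 85.0 and 84.6 FPKM in sh-NC against 194.7 and 196.1 FPKM in sh-LDB1, a log2 difference of 1.195 ± 0.037 (SE; limma adjusted p = 9.57e-05). Phosphofructokinase, the committed step, is a tetramer of PFKL, PFKM and PFKP subunits. PFKL, the liver type, was at 37.4 and 33.7 FPKM in sh-NC against 63.7 and 63.0 FPKM in sh-LDB1 (log2 difference 0.82, limma adjusted p = 0.00055). PFKM, the muscle type, was at 7.59 and 8.08 FPKM in sh-NC against 14.2 and 13.8 FPKM in sh-LDB1 (log2 difference 0.76, limma adjusted p = 0.00048). For PFKP, the platelet type, the levels were 25.0 and 21.4 FPKM against 27.9 and 27.4 FPKM, and its log2 difference of 0.25 ± 0.084 did not pass (limma adjusted p = 0.0552). With single libraries left out, the PFKP difference lay between 0.14 (without sh-NC replicate 2) and 0.35 (without sh-NC replicate 1). PFKL stayed the leading subunit at 53.3% of the summed FPKM in sh-NC and 60.3% in sh-LDB1, and PFKP went from 34.8% to 26.3%.

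The 4 PFKFB genes encode enzymes that make and remove fructose-2,6-bisphosphate, the activator of phosphofructokinase. None of the 3 that were tested passed as higher in the deposited values, and PFKFB1 was under the filter and not tested. PFKFB2 was at 7.71 and 7.81 FPKM in sh-NC against 4.97 and 4.87 FPKM in sh-LDB1 (log2 difference -0.57 ± 0.055 SE, limma adjusted p = 0.0011). PFKFB3 was at 3.77 and 3.33 FPKM against 3.02 and 3.12 FPKM (log2 difference -0.16, limma adjusted p = 0.165). PFKFB4, the most abundant of the 4, was at 22.8 and 21.7 FPKM against 22.3 and 22.6 FPKM. It was the one tested gene of the 32 whose groups overlapped (log2 difference 0.011, limma adjusted p = 0.849), and it passed as higher with libraries at equal summed FPKM (0.18, adjusted p = 0.032).

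Aldolase splits fructose-1,6-bisphosphate into the triose phosphates. ALDOC, known as the brain form, had the higher deposited level, at 97.3 and 95.6 FPKM in sh-NC against 168.2 and 170.1 FPKM in sh-LDB1 (log2 difference 0.80 ± 0.038 SE, limma adjusted p = 0.000178). ALDOA (ENSG00000149925, chr16:30064164-30070457, plus strand), the muscle and red cell form, was at 7.94 and 7.74 FPKM in sh-NC against 23.7 and 26.8 FPKM in sh-LDB1. Its log2 difference was 1.57 ± 0.074 (SE; limma adjusted p = 0.000177). The ALDOA level is uncertain, since 42.8% of its exonic bases lie in a second annotated gene on the same strand (ENSG00000285043, 0.423 to 0.982 FPKM), and how the counting treated such reads was not given in the sources used here. The aldolase sum went from a mean of 104.3 to 194.4 FPKM. This sum, and which aldolase was the more abundant, carry the same uncertainty. TPI1, which interconverts the trioses, was at 286.8 and 268.5 FPKM in sh-NC against 305.3 and 304.9 FPKM in sh-LDB1. Its log2 difference of 0.14 ± 0.050 did not pass (limma adjusted p = 0.0666). With single libraries left out, the TPI1 difference lay between 0.089 (without sh-NC replicate 2) and 0.18 (without sh-NC replicate 1).

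In the lower stage, from triose phosphate to pyruvate, the levels of GAPDH and PGAM1 did not pass the test while the enolases, PGK1 and PKM rose. GAPDH, which makes NADH and which the study used as its reference protein in western blots, was at 842.3 and 895.1 FPKM in sh-NC against 939.2 and 922.3 FPKM in sh-LDB1. These are mRNA levels, and GAPDH protein was not measured in these libraries. The GAPDH log2 difference of 0.10 ± 0.054 had a limma adjusted p of 0.163, and it was 0.27 (adjusted p = 0.0102) with libraries at equal summed FPKM. As deposited, leaving out single libraries gave GAPDH differences from 0.056 (without sh-NC replicate 1) to 0.14 (without sh-NC replicate 2). PGK1, the first ATP-yielding step, was at 216.9 and 221.9 FPKM in sh-NC against 321.6 and 329.5 FPKM in sh-LDB1 (log2 difference 0.57 ± 0.041 SE, limma adjusted p = 0.000492). PGAM1, which moves the phosphate group, was at 184.7 and 183.4 FPKM against 187.0 and 187.5 FPKM (log2 difference 0.024, limma adjusted p = 0.598), with 40.0% of its 50-mers found in other genes.

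Both enolases rose, and the minor one rose more. ENO1, the ubiquitous form, was at 602.7 and 584.8 FPKM in sh-NC against 915.7 and 911.0 FPKM in sh-LDB1 (log2 difference 0.62 ± 0.045 SE, limma adjusted p = 0.000485). ENO2 (ENSG00000111674, chr12:6913745-6923698, plus strand), the neuronal form, was at 16.2 and 14.7 FPKM in sh-NC against 55.3 and 52.9 FPKM in sh-LDB1. Its log2 difference was 1.75 ± 0.063 (SE; limma adjusted p = 0.000116). ENO1 still held 94.4% of the enolase sum in sh-LDB1, after 97.5% in sh-NC.

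Pyruvate kinase, the last step and the second ATP-yielding one, showed the most opposed isozymes. PKLR (ENSG00000143627, chr1:155289293-155301438, minus strand) encodes the red cell and liver forms. It was at 65.0 and 63.6 FPKM in sh-NC, from 3331 and 2969 recovered reads, against 1.34 and 1.77 FPKM in the sh-LDB1 libraries, from 68 and 85 reads. Both sh-LDB1 libraries were far below both sh-NC libraries, and the sh-LDB1 mean was 2.42% of the sh-NC mean. On the log2(FPKM + 1) scale PKLR fell by 4.68 ± 0.095 (SE; limma adjusted p = 6.77e-05), the fourth most negative difference among all tested genes. PKM (ENSG00000067225, chr15:72199029-72231819, minus strand), the gene of the M1 and M2 forms, was at 85.1 and 81.4 FPKM in sh-NC against 309.9 and 311.2 FPKM in sh-LDB1. PKM rose by 1.89 ± 0.043 (SE; limma adjusted p = 7.03e-05) on the log2 scale. The M1 and M2 forms are splice forms of 1 gene and are not separated by a value per gene. PKLR made up 43.6% ± 0.388 (SD, n = 2) of the pyruvate kinase sum in sh-NC and 0.498% ± 0.0962 (SD, n = 2) in sh-LDB1. The sum rose from a mean of 147.5 to 312.1 FPKM. PKLR shared no 50-mer with another gene, and 17.6% of its exonic bases lie opposite HCN3, which was at 5.36 to 6.80 FPKM in the 4 libraries.

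BPGM makes 2,3-bisphosphoglycerate, the red cell effector that lowers the oxygen affinity of hemoglobin. BPGM was at 9.42 and 9.88 FPKM in sh-NC against 7.52 and 8.07 FPKM in sh-LDB1. Its log2 difference of -0.28 ± 0.061 passed the test (limma adjusted p = 0.0153). The call was lost without sh-NC replicate 2 (-0.25, adjusted p = 0.0656), without sh-LDB1 replicate 1 (-0.23, adjusted p = 0.0929) and at equal summed FPKM (-0.12, adjusted p = 0.161).

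**Figure D3:**
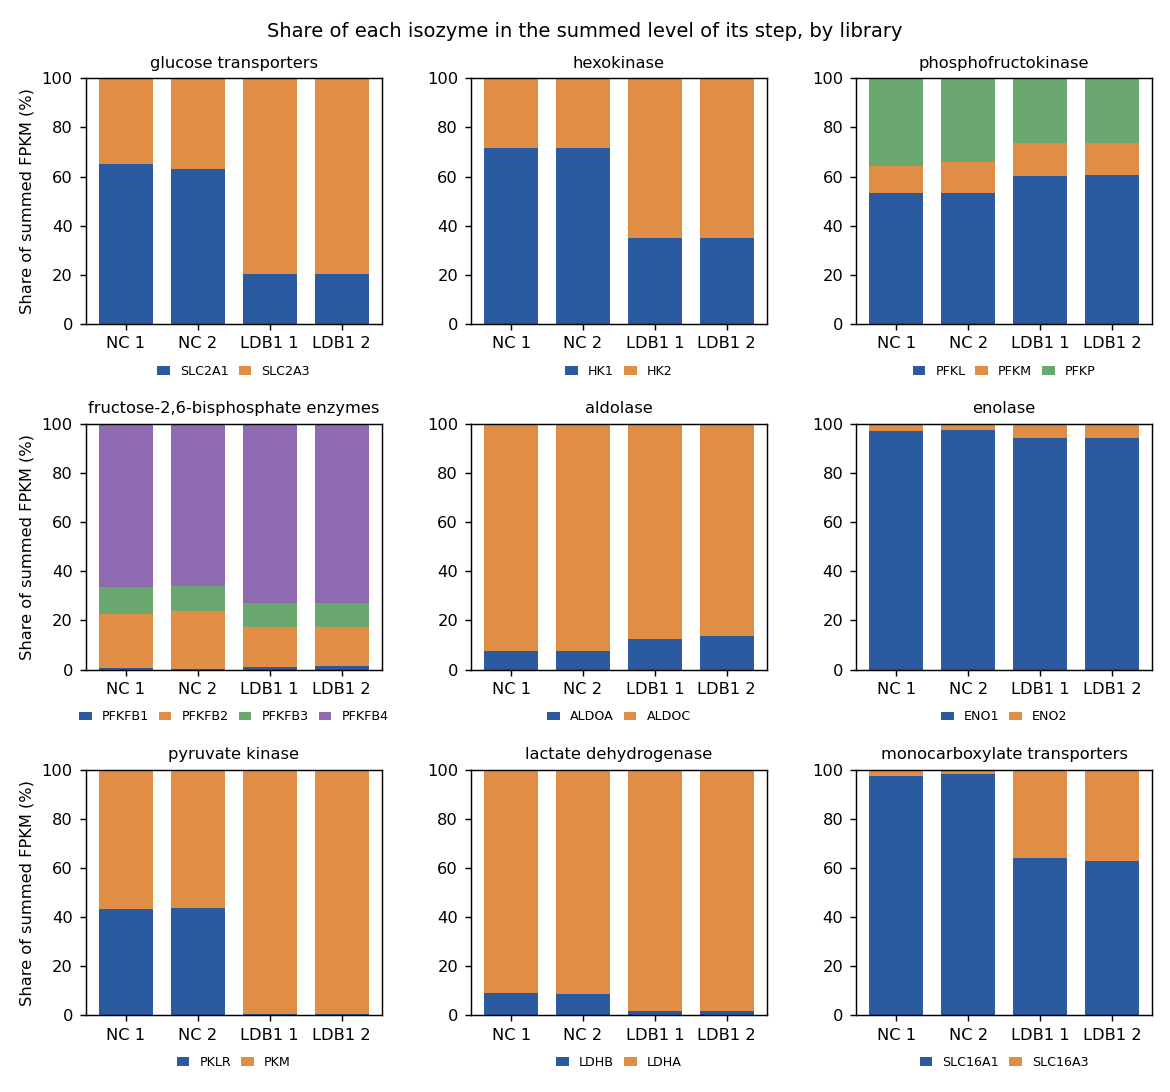
Share in percent of each isozyme in the summed FPKM of its step, 1 stacked bar per library, for the 9 steps compared. The pyruvate dehydrogenase kinases, of which PDK1 alone passed the filter, were not among them. The leading gene changed between sh-NC and sh-LDB1 for the glucose transporters and for hexokinase, and PKLR shrank to 0.498% of pyruvate kinase on average. The aldolase and lactate dehydrogenase shares are uncertain, since ALDOA and LDHB share exons with other annotated genes.

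The genes of pyruvate and lactate handling moved apart. LDHA, which favours lactate formation, was at 280.6 and 286.0 FPKM in sh-NC against 318.0 and 314.5 FPKM in sh-LDB1. Its small log2 difference of 0.16 ± 0.040 passed (limma adjusted p = 0.0228), and did not pass without sh-LDB1 replicate 1 (0.15, adjusted p = 0.173) or without sh-LDB1 replicate 2 (0.17, adjusted p = 0.147). LDHB (ENSG00000111716, chr12:21635342-21757857, minus strand), which favours the reverse reaction, was at 28.0 and 26.6 FPKM in sh-NC against 5.57 and 5.14 FPKM in sh-LDB1. LDHB fell by 2.16 ± 0.061 (SE; limma adjusted p = 8.31e-05), and its share of lactate dehydrogenase went from 8.80% to 1.66%. The summed level of LDHA and LDHB was 310.6 FPKM before and 321.6 FPKM after knockdown on average. Part of the LDHB exons, 33.4% of the bases, also lies in another annotated gene on the same strand. The LDHB level and its share are therefore uncertain, since how such reads were counted was not given.

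Export of lactate is carried by proton-linked monocarboxylate transporters, MCT1 from SLC16A1 and MCT4 from SLC16A3. SLC16A3 (ENSG00000141526, chr17:82217934-82261129, plus strand) was at 0.996 and 0.663 FPKM in sh-NC, from 145 and 88 recovered reads, against 14.0 and 13.8 FPKM in sh-LDB1, from 2011 and 1881 reads. Its sh-NC mean was below the filter of 1 FPKM, so it entered the test only through the sh-LDB1 libraries, where it was high. Its mean was 16.7-fold higher in FPKM, and its log2 difference on the log2(FPKM + 1) scale was 3.03 ± 0.11 (SE; limma adjusted p = 0.000116), rank 28 from the highest of all tested genes. SLC16A1 was at 41.4 and 43.8 FPKM in sh-NC against 24.8 and 23.5 FPKM in sh-LDB1 (log2 difference -0.79 ± 0.053 SE, limma adjusted p = 0.000397). SLC16A3 therefore went from 1.92% ± 0.608 to 36.5% ± 0.678 (SD, n = 2) of the pair, while the sum was 42.4 and 44.5 FPKM in sh-NC against 38.7 and 37.3 FPKM in sh-LDB1. PDK1, a kinase that blocks pyruvate dehydrogenase, was at 11.6 and 11.9 FPKM in sh-NC against 9.72 and 9.02 FPKM in sh-LDB1 (log2 difference -0.29, limma adjusted p = 0.0107). The PDK1 call was lost without sh-LDB1 replicate 2 (-0.25, adjusted p = 0.0682) and at equal summed FPKM (-0.14, adjusted p = 0.088).

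In the pentose phosphate branch, PGLS and TKT rose, RPIA and TALDO1 fell and PGD did not pass the test. PGLS, the lactonase of the oxidative arm, was at 11.4 and 12.1 FPKM in sh-NC against 15.6 and 15.5 FPKM in sh-LDB1 (log2 difference 0.38, limma adjusted p = 0.00312). PGD, which makes NADPH and ribulose-5-phosphate, was at 126.2 and 130.5 FPKM against 122.0 and 122.4 FPKM (log2 difference -0.07, limma adjusted p = 0.188). RPIA (ENSG00000153574, chr2:88691673-88750929, plus strand), which turns ribulose-5-phosphate into ribose-5-phosphate for nucleotides, was at 29.7 and 29.7 FPKM in sh-NC against 12.8 and 10.8 FPKM in sh-LDB1. RPIA fell by 1.27 ± 0.087 (SE; limma adjusted p = 0.000418) on the log2 scale. TKT, a transketolase that links pentoses back to glycolysis, was at 62.7 and 60.2 FPKM in sh-NC against 115.4 and 117.7 FPKM in sh-LDB1. Its log2 difference was 0.91 ± 0.043 (SE; limma adjusted p = 0.000175). TALDO1, its partner transaldolase, was at 117.6 and 121.0 FPKM against 97.9 and 100.1 FPKM (log2 difference -0.27, limma adjusted p = 0.00451), and its call was lost at equal summed FPKM (-0.095, adjusted p = 0.115).

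**Figure D4:**
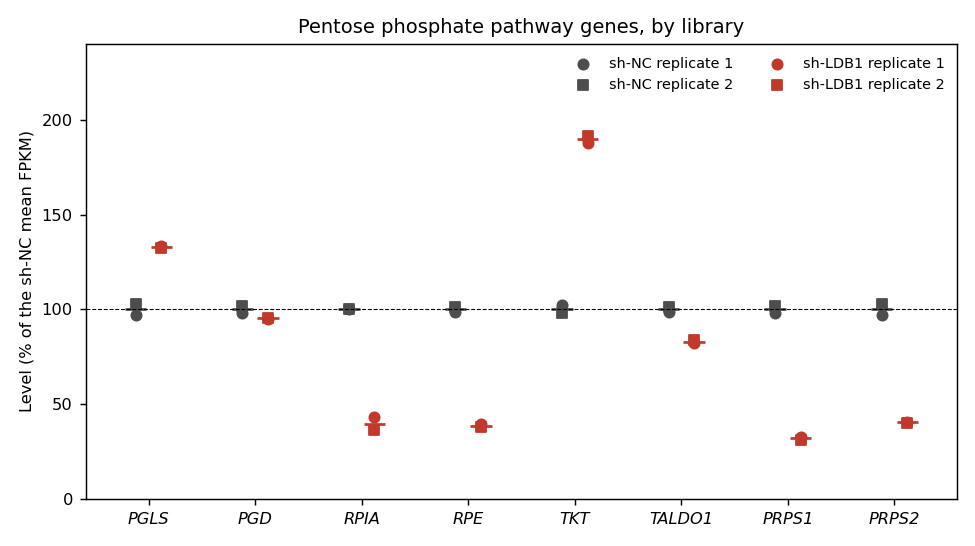
Level of pentose phosphate genes and of the ribose phosphate kinases PRPS1 and PRPS2 in percent of the sh-NC mean FPKM, 1 point per library and a line at each group mean. TKT lay at 190% of the sh-NC mean, RPIA at 39.7%, RPE at 38.7%, PRPS1 at 31.9% and PRPS2 at 40.3%.

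Other genes of the same pathways were taken from a list of 59 written by function, of which 9 had no row analysed here, 23 were under 1 FPKM on average and 27 were tested. Of these 27, 9 were higher, 11 were lower and 7 did not pass, so 74.1% were called beside 67.4% of all tested genes. SLC2A14 was the only 1 of the 27 past 2-fold higher (1.85 on the log2 scale, limma adjusted p = 0.00343), and it is uncertain because it shares sequence with SLC2A3. That count was 2 without sh-LDB1 replicate 2. SLC2A14 was at 0.443 and 0.742 FPKM in sh-NC against 6.17 and 3.53 FPKM in sh-LDB1. Its sh-NC mean was below the 1 FPKM filter, as were those of SLC2A11 (0.941 FPKM) and SLC2A12 (0.649 FPKM), which were also higher. These genes entered the test only through the sh-LDB1 libraries, where they were high. Past 2-fold lower were 5 genes. PRPS1 and PRPS2, which make phosphoribosyl pyrophosphate from ribose-5-phosphate, fell by 1.60 and 1.19 on the log2 scale. RPE, the epimerase beside RPIA, fell by 1.21. DLD, the E3 subunit of pyruvate dehydrogenase and related complexes, fell by 1.55. PCK2, the mitochondrial phosphoenolpyruvate carboxykinase, fell by 1.43 (limma adjusted p for these 5 between 8.94e-05 and 0.000178).

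**Figure D5:**
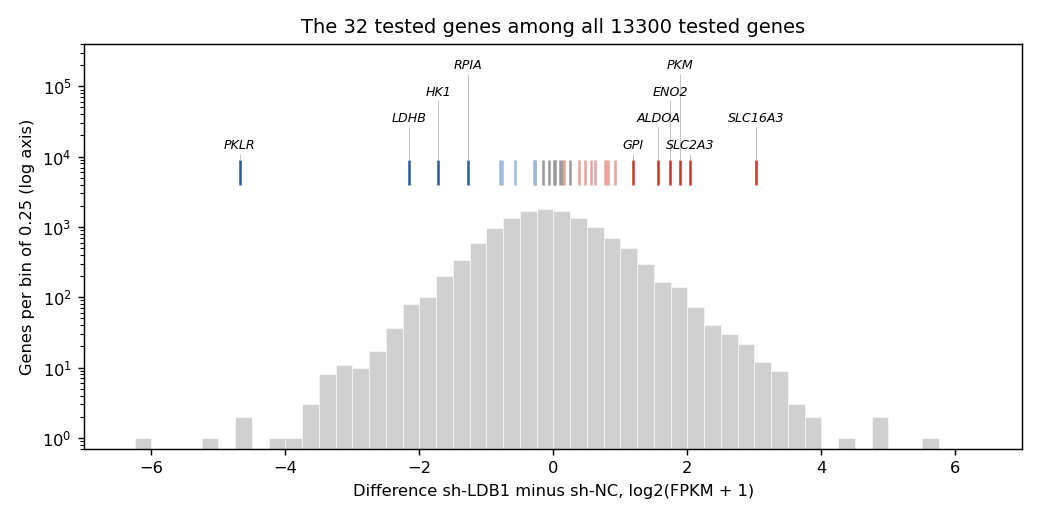
Number of tested genes (log axis) in bins of 0.25 of the log2 difference sh-LDB1 minus sh-NC, all 13300 tested genes in grey, with a tick for each of the 32 tested pathway genes coloured by call. The 10 genes past 2-fold are named, and PKLR lies near the lower end of all tested genes.

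By stage, the upper stage of glycolysis had 6 of 9 tested genes higher and 1 lower, and the lower stage had 4 of 7 higher and 1 lower. The lactate and pyruvate genes had 2 higher and 3 lower of 5 tested, and the pentose phosphate genes had 2 higher and 2 lower of 5, where 29.9% of all tested genes were higher and 37.4% lower. With libraries at equal summed FPKM, PFKP and TPI1 of the upper stage and GAPDH and PGAM1 of the lower stage also passed as higher, and the calls of PDK1 and TALDO1 were lost. Summed over the 35 genes, the level was 3640 and 3647 FPKM in sh-NC against 4717 and 4703 FPKM in sh-LDB1, or 1.14% and 1.66% of all FPKM on average. The sum of the lower stage went from a mean of 2029 to 2723 FPKM, and that of the pentose phosphate genes from 350.5 to 365.1 FPKM. For the shares and sums, 2 libraries against 2 allow no exact two-sided permutation p below 0.333. All 21 isozyme shares had this smallest p, and so did each sum named here.

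Promoter windows were matched for 32 of the 35 genes, 62 windows in all, and compared as letters with all 35116 windows of the same length. AGATAA stood in 5 of the 62 windows (8.06%) and in 9.17% of all windows, and TGATAA in 5 (8.06%) and in 6.66%. At least 1 of these GATA forms stood in 11.3% of the 62 windows and in 14.6% of all windows. CACCC stood in 59.7% of the 62 windows and in 54.7% of all windows. CACGTG stood in 12.9% against 6.34%, and ACGTG, the core of a hypoxia response element that CACGTG contains, in 35.5% against 18.5%. Several windows belong to 1 gene and overlap, so these shares are descriptions. PKLR, PDK1 and PFKM held both AGATAA and TGATAA in their windows, and of these PKLR and PDK1 were lower and PFKM was higher in sh-LDB1.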

How the data were processed

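RNA-seq was measured in 4 libraries, grouped by the sample titles. The authors filtered and mapped the reads (HISAT2 2.0.5 and genome build hg38 in the submitters' processing notes) and deposited a table of FPKM, not pooled over replicates. The counting tool, the annotation and the use of strand were not given in the sources used here. The authors called changed genes with DESeq2, and no values of that test were used here. The table had 0 columns of other samples. The design allowed for counts, and since the values were FPKM the count tests were not the main test.

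Values were taken as log2(FPKM + 1). The 13300 genes that averaged 1 FPKM or more over the libraries entered limma 3.58.1 under R 4.3.3, using eBayes, a trend on level and Benjamini-Hochberg adjustment over all of them, and were called at an adjusted p below 0.05. Past 2-fold also required a fold above 2 or below 0.5. The remaining steps used Python 3.11.15. Whole reads were recovered from the FPKM steps with GENCODE release 44 lengths for 97.7% of genes, within 0.0001, and coordinates are from that release on GRCh38. The authors' FPKM had been divided by totals of 0.967 and 0.961 times the recovered reads in sh-NC against 1.04 and 1.05 times in sh-LDB1. Summed FPKM was 319063 and 319687 in sh-NC against 285208 and 281397 in sh-LDB1. Both split by group, and the divisors place sh-LDB1 values lower relative to sh-NC than the recovered reads would. Where genes share exons or sequence, reads could be split by the counting, and FPKM rest on gene length. The recovery and the limma step were tested on data made with known answers. All reads came out right for 98.2% of 3000 genes. Limma called 71 of 94 genes made to change 2-fold and 86 of 92 made to change 4-fold, in the right direction. It also called 14 of 11865 unchanged genes, 7 of them past 2-fold. Precision is limited by 2 libraries per group.

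The pathway genes, the list of other pathway genes and the marker lists were chosen with earlier results of these data known. All 35 genes are named, with LDB1 and the other pathway genes past 2-fold. BPGM, GAPDH, LDHA, PDK1, PFKP and TPI1 were also given without single libraries. Alternatives covered pseudocount, filter, scaling, block, trend, threshold, each library left out, and limma voom on the recovered reads, which was chosen after seeing the data. Protein sequences were not analysed here, and 1 gene of the named gene rule is not reported here.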

Additional observations from a re-analysis of the deposited data

How the results depend on the processing

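Among the called pathway genes and LDB1, no log2 difference changed direction under any alternative run. The counts of the 32 tested pathway genes stayed within 1.5 times of 15 higher and 10 lower under every alternative: 14 to 17 higher and 9 to 10 lower with 1 library left out, 19 and 9 with median-of-ratios scaling, and 20 and 9 with voom on recovered reads, which was added after seeing the data and called 4753 genes higher and 4523 lower over all genes. The median log2 difference of all tested genes was -0.078 as deposited, 0.061 at equal summed FPKM and 0.0045 with median-of-ratios scaling. With these scalings PFKP, TPI1, GAPDH and PGAM1 passed as higher, and PGD, not called in either direction, went from -0.07 to 0.10 at equal summed FPKM. PFKFB4, not called as deposited, was at -0.024 without sh-NC replicate 2. Counts that moved by over 1.5 times concerned other genes. A mean of at least 5 FPKM, which tests fewer genes, gave 2485 genes higher and 710 higher past 2-fold, and 4 other pathway genes higher (9 in the report) with 0 of them past 2-fold, since SLC2A14 averages less than 5 FPKM. Pathway genes higher past 2-fold were 7 in place of 6 with both scalings and voom, where TKT passed. A limma treat test against 2-fold, a stricter question, gave 568 genes higher and 581 lower. Voom gave 2033 genes higher past 2-fold. Of other pathway genes higher past 2-fold, 1 in the report, voom gave 5, a pseudocount of 0.01 gave 3, and a pseudocount of 0.1, no filter and each of the 2 scalings gave 2, with 1 to 2 when single libraries were left out. The cause was not tested. Without the 10 most abundant genes, the summed share of the pathway genes differed by 0.639 in place of 0.522 percentage points.

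Replicate numbers did not pair the libraries (correlation of deviations 0.0196). With a replicate block, the counts were again 15 higher and 10 lower, the adjusted p of LDB1 was 0.000414, PFKP passed (adjusted p = 0.0426) and LDHA did not (adjusted p = 0.0573). Leaving out single libraries moved the LDB1 log2 difference between -3.65 and -3.48. With 1 library in a group, that library is assumed to vary like the others. PFKFB1, PDK2 and PDK3 were left out by the 1 FPKM filter, and differences as small as that of GAPDH depended on the scaling.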
